A study of Mus musculus with 6 samples.

Results

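Among the RBPJ peaks listed for mitotic cells, 473 lay at promoters and had no counterpart in the list from asynchronous cells. They were chosen by their position in both lists: the centre of the peak lay at most 1 kb before or 100 bp after the start of a GENCODE vM1 transcript, and no asynchronous peak centre lay within 250 bp of it. They were 14.7% (95% interval 13.5 to 15.9) of the 3227 mitotic peaks, 16.9% (15.5 to 18.3) of the 2802 mitotic peaks without an asynchronous counterpart, and 72.0% (68.4 to 75.4) of the 657 mitotic peaks at promoters. Over all mitotic peaks, 2802 of 3227 had no asynchronous counterpart, a larger share than the 72.0% at promoters. Both lists together held 8433 peaks. "Mitotic-only" is used here for these 473 peaks, and it means absent from the asynchronous list at the authors' threshold, not absent from asynchronous cells.

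RBPJ is the DNA-binding partner of the Notch intracellular domain. Without Notch activity it can hold corepressors at its targets, and with the Notch intracellular domain and a Mastermind-like protein it activates them. Its site has the core TTCCCA, usually read as TTCCCACA or TTCCCACG. During mitosis transcription largely stops and many factors leave the chromosomes, and factors that stay are studied as possible carriers of transcriptional memory.

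The experiment was ChIP-seq with a custom-made anti-RBPJ antibody in F9 cells, a mouse embryonal carcinoma line that resembles cells of the early embryo. One population was asynchronous, which the labels describe as 95% interphase and 5% mitotic cells, and the other was arrested in mitosis with nocodazole, a drug that depolymerizes microtubules. Each population had 2 immunoprecipitations and 1 input, 6 libraries in all, but its list came from the first immunoprecipitation, so no value below has a replicate. There were 5206 peaks in asynchronous and 3227 in mitotic cells, each list with a single fixed peak width and without read numbers.

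For comparison, 184 mitotic promoter peaks had an asynchronous centre within 250 bp and are called co-centred. Another 1445 asynchronous promoter peaks had no mitotic centre within 250 bp and are called asynchronous-only. The comparisons below are between these sets of peaks.

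The full RBPJ motif, TTCCCACA or TTCCCACG on either strand, was found in 11 of the 473 mitotic-only peaks. The 6 of these that lay outside annotated exons and could be printed are shown because they are the members that carry the letters of the factor's own site. Each line gives 40 bases of mm9, read 5′ to 3′ on the strand of the motif, with the motif in capitals.
Ankrd9, chr12:112217634-112217673, minus strand: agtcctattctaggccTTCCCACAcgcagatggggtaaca
U2, chr12:60141101-60141140, minus strand: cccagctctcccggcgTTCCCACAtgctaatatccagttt
Rcan1, chr16:92466755-92466794, plus strand: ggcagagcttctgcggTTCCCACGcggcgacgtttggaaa
Dhcr7, chr7:151008437-151008476, plus strand: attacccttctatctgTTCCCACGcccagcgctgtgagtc
A230108P19Rik, chr2:6113378-6113417, plus strand: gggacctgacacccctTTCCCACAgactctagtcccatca
Wt1, chr2:104970801-104970840, minus strand: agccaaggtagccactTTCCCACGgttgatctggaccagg

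These sites were spread over promoters of unrelated kinds. Ankrd9 (score 17.5) had its motif 403 bp upstream of the start, and it was the only member with the motif among the 10 of highest score. The match near U2, a spliceosomal small nuclear RNA gene, lay 202 bp upstream of the start in a peak of score 13.8. Rcan1, an inhibitor of calcineurin, had the motif 383 bp upstream in a peak of score 12.4. Dhcr7, which catalyses the last step of cholesterol synthesis, had it 594 bp upstream in a peak of score 10.9. The noncoding gene A230108P19Rik and Wt1, a zinc finger transcription factor of the developing kidney and gonad, had it 900 and 137 bp upstream in peaks at the lowest score of the list. Among the members whose motif fell in an exon, the lincRNA Gm10433 had it 80 bp downstream of the start, Ganc, an alpha-glucosidase, 12 bp upstream and Usp31, a deubiquitinase, 271 bp upstream. The 2 others are not named. An asynchronous peak lay 418 bp from the peak of Ganc, and the next closest were 12283 bp away at Ankrd9 and 14129 bp away at Gm10433.

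Most mitotic-only peaks lacked that motif, and so did the 10 of highest score apart from Ankrd9. The sequences of 4 of the 10 highest-scoring peaks are shown because they stand highest in score and lie outside annotated exons. The core TTCCCA, or TGGGAA where it lies on the minus strand, is in capitals.
6820431F20Rik, chr8:19893837-19894039, plus strand: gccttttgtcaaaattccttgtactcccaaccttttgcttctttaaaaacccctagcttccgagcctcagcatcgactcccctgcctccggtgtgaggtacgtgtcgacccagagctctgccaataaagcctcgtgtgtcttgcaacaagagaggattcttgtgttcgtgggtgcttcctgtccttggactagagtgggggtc
Lmna, chr3:88314101-88314303, plus strand: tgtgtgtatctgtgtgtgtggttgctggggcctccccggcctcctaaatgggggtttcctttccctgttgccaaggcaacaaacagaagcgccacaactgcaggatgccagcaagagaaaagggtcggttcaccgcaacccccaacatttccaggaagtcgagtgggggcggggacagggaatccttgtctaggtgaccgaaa
Camta1, chr4:151236031-151236233, plus strand: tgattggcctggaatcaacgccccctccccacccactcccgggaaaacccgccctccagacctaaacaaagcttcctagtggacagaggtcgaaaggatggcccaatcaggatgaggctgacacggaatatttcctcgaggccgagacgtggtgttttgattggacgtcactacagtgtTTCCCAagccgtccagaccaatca
Cyp46a1, chr12:109571631-109571833, plus strand: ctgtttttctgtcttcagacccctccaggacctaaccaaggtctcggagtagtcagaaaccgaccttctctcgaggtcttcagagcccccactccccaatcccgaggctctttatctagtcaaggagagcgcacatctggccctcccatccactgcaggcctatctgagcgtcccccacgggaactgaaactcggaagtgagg

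Of these 4 peaks, only that of Camta1 held the 6-letter core. Its sequence also held CCAAT, read here as ATTGG on one strand and CCAAT on the other, which is the letters bound by NFY. CCAAT was in the peaks of 6820431F20Rik and Cyp46a1 as well. The SP/KLF letters GGGCGG, on either strand, were in the peaks of Camta1 and Lmna, and that of Lmna held no RBPJ core. The Camta1 peak also held a match to the CTCF core counted below.

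Across all members the full motif stood at 2.33% (11 of 473, 95% interval 1.17 to 4.12). It was found in 7.27% (5.98 to 8.73) of asynchronous-only peaks and in 13.6% (8.99 to 19.4) of co-centred peaks, in windows of one width, that of a mitotic peak. Both differences passed the test: the odds ratio was 0.304 (0.162 to 0.571) against asynchronous-only peaks (two-sided Fisher's exact test, adjusted p = 0.000125) and 0.151 (0.0729 to 0.315) against co-centred peaks (two-sided Fisher's exact test, adjusted p = 9.81e-07). In a wider motif window the odds ratio against asynchronous-only peaks was 0.621 and no longer passed (two-sided Fisher's exact test, adjusted p = 0.0603), and that against co-centred peaks was 0.323 and kept its call (two-sided Fisher's exact test, adjusted p = 0.000419). The same letters occurred in 1.72% of such windows at all protein-coding starts, centred 100 bp upstream, and in 1.27% (0.657 to 2.21) of windows 2 kb to either side of the mitotic-only peaks. The interval of the members includes both of these levels. The shorter core TTCCCA was in 111 members, 23.5% (19.7 to 27.6), compared with 17.1% of protein-coding starts, 19.0% (16.6 to 21.7) of the flanks, 34.4% (31.9 to 36.9) of asynchronous-only peaks and 36.4% (29.5 to 43.8) of co-centred peaks. For this core the odds ratios were 0.585 against asynchronous-only and 0.535 against co-centred peaks, and both passed (two-sided Fisher's exact tests, adjusted p = 4.09e-05 and 0.00481).

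**Figure D1:**
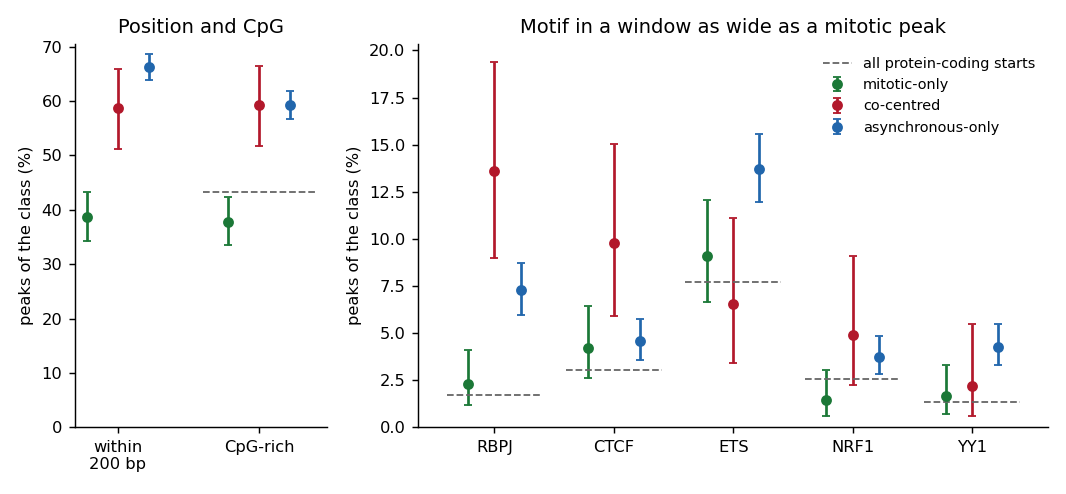
Share of promoter peaks (%, vertical axis) with each feature in mitotic-only (473), co-centred (184) and asynchronous-only (1445) peaks; points are shares, bars exact 95% intervals of the count, and dashed lines the share at all protein-coding starts. Mitotic-only peaks were lowest for position within 200 bp of a start (38.7%), CpG richness (37.8%) and the RBPJ motif (2.33%).

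Mitotic-only peaks lay further from transcript starts than the other promoter peaks. Their centres had a median of 282.5 bp upstream of the nearest start (-282.5 bp, quartiles -491.5 and -76.5), compared with -151 bp (quartiles -314 and -39) for co-centred and -100.5 bp (quartiles -294.5 and -15.5) for asynchronous-only peaks. Only 183 of 473, 38.7% (34.3 to 43.2), lay within 200 bp of a start. That share was 66.3% (63.8 to 68.7) of asynchronous-only peaks, with odds 0.321 times as high (0.259 to 0.398; two-sided Fisher's exact test, adjusted p = 1.43e-24), and 58.7% (51.2 to 65.9) of co-centred peaks, with odds 0.444 times as high (0.314 to 0.628; two-sided Fisher's exact test, adjusted p = 2.34e-05). The window was fixed by the choice of members, but the position within it was not. With peaks at or above the median score of each list the difference from co-centred peaks was smaller and did not pass (odds ratio 0.782, two-sided Fisher's exact test, adjusted p = 0.583), whereas that from asynchronous-only peaks kept its call. Both lists were cut before the classes were formed, so a mitotic peak with a lower-scoring asynchronous partner became mitotic-only, giving 328 members. Without peaks at the lowest score there were 293 members. The difference from co-centred peaks then kept its call (odds ratio 0.546, two-sided Fisher's exact test, adjusted p = 0.016).

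The profile of the members was broad. The 100 bp just upstream of the start held 72 of them (15.2%), and the interval from 300 to 400 bp upstream held nearly as many, 62 (13.1%). In the asynchronous-only class the 100 bp just upstream held 31.2% of the peaks and the interval from 300 to 400 bp upstream 6.99%. A distance of over 500 bp upstream was found for 117 members, 24.7% (20.9 to 28.9), compared with 12.8% (11.1 to 14.6) of asynchronous-only and 12.5% (8.09 to 18.2) of co-centred peaks. Downstream of the start lay 55 members (11.6%), compared with 18.7% and 12.5%.

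**Figure D2:**
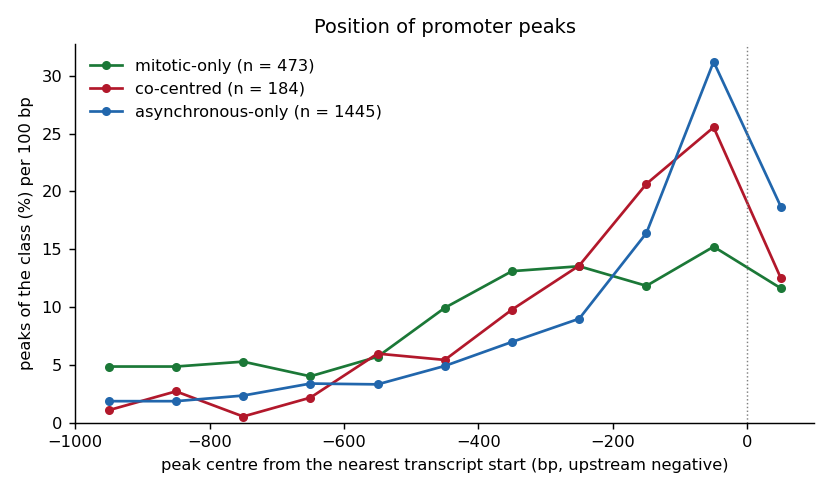
Share of each class of promoter peaks (%, vertical axis) in bins of 100 bp, by distance of the peak centre from the nearest transcript start (bp, upstream negative). The mitotic-only curve stays between 9.94% and 15.2% over the 500 bp upstream of the start, while the asynchronous-only curve climbs to 31.2% in the last 100 bp.

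Mitotic-only peaks were also less often in CpG-rich sequence. CpG islands are stretches that keep their CpG dinucleotides because they stay unmethylated in the germ line, and they mark most promoters of housekeeping genes. In about 500 bp around the centre, 179 members, 37.8% (33.5 to 42.4), had at least 50% GC and an observed over expected CpG ratio of at least 0.6. The share was 59.2% (56.7 to 61.8) in asynchronous-only peaks (odds ratio 0.419, 0.338 to 0.519; two-sided Fisher's exact test, adjusted p = 7.90e-15) and 59.2% (51.8 to 66.4) in co-centred peaks (odds ratio 0.419, 0.296 to 0.593; two-sided Fisher's exact test, adjusted p = 5.10e-06). With peaks at or above the median score, where each list was cut before the classes were formed, the odds ratio against co-centred peaks was 0.683. It did not pass (two-sided Fisher's exact test, adjusted p = 0.291). Without peaks at the lowest score it was 0.539 and passed (two-sided Fisher's exact test, adjusted p = 0.0142). All protein-coding starts stood at 43.2%. The median CpG ratio was 0.548 in members, 0.674 in asynchronous-only and 0.702 in co-centred peaks, while the median GC content differed less, at 54.3%, 56.1% and 56.3%.

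Because sequence changes with distance from the start, both features were also compared among peaks within 200 bp of a start, an alternative chosen after seeing the data. There, 92 of 183 mitotic-only peaks were CpG-rich (50.3%), compared with 68.8% of asynchronous-only (odds ratio 0.459, two-sided Fisher's exact test, adjusted p = 5.89e-05) and 69.4% of co-centred peaks (odds ratio 0.445, two-sided Fisher's exact test, adjusted p = 0.00997). The RBPJ motif was in 3 of 183 (1.64%), compared with 7.41% (odds ratio 0.208, two-sided Fisher's exact test, adjusted p = 0.00997) and 15.7% (odds ratio 0.0892, two-sided Fisher's exact test, adjusted p = 9.04e-05).

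Other promoter elements were counted in the same windows. The ETS core CCGGAAG was in 9.09% of members and 13.7% of asynchronous-only peaks (odds ratio 0.630, two-sided Fisher's exact test, adjusted p = 0.0235). The YY1 core AAGATGGC was in 1.69% and 4.29% (odds ratio 0.384, two-sided Fisher's exact test, adjusted p = 0.0235). Against co-centred peaks neither ETS nor YY1 passed (two-sided Fisher's exact tests, adjusted p = 0.552 and 0.882). The NRF1 core GCATGCGC was in 1.48% of members, 3.74% of asynchronous-only peaks (odds ratio 0.387, two-sided Fisher's exact test, adjusted p = 0.0358) and 4.89% of co-centred peaks (odds ratio 0.292, two-sided Fisher's exact test, adjusted p = 0.0437). ETS, YY1 and NRF1 stood at 7.74%, 1.33% and 2.58% of protein-coding starts. Among peaks within 200 bp of a start, none of these 4 differences passed, with adjusted p from 0.204 to 0.499 (two-sided Fisher's exact tests).

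The remaining elements did not separate the members from either class. CCAAT, bound by NFY, was in 29.6% of members and 30.9% of protein-coding starts. GGGCGG, bound by SP and KLF factors, was in 22.8% of members and 26.2% of asynchronous-only peaks, below the 38.3% of protein-coding starts. The TATA box letters TATAAA were in 3.38% of members and 10.2% of protein-coding starts. TGACGTCA, the CRE, was in 2.11% of members and TTTGGCG or TTTCGCG, bound by E2F, in 1.69%. The adjusted p of these elements ran from 0.216 to 1 (two-sided Fisher's exact tests), and the intervals of their odds ratios, such as 0.758 to 1.19 for CCAAT against asynchronous-only peaks, give the differences these counts allow.

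The core of the CTCF site used in the gel-shift fragments of the study, with up to 2 mismatches, was in 20 members (4.23%, 2.60 to 6.45), compared with 3.04% of protein-coding starts. CTCF is the zinc finger protein that anchors chromatin loops. Asynchronous-only peaks stood at 4.57% (odds ratio 0.922, 0.553 to 1.54; two-sided Fisher's exact test, adjusted p = 0.937). Co-centred peaks stood at 9.78% (odds ratio 0.407, 0.210 to 0.789; two-sided Fisher's exact test, adjusted p = 0.0235). The difference from asynchronous-only peaks turned in direction in 5 alternatives, none of which passed, and passed in 1, a wider promoter (odds ratio 0.549). The difference from co-centred peaks lost its call in 7 alternatives, and in 1 of these, within 200 bp of a start, it turned in direction (odds ratio 1.10).

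The members had a median score of 10.9 and an upper quartile of 11.6, the same as all mitotic peaks, and their highest was 24.8 in a list that ran up to 282.5. The lowest score of the list was that of 180 members (38.1%), 78 (16.5%) reached 13 and 2 exceeded 20. Over all mitotic peaks, 42.6% were at the lowest score and 13.4% reached 13. Co-centred promoter peaks had a median of 11.6, with 22.3% at the lowest score and 32.1% at 13 or more. Mitotic-only peaks away from promoters had 46.8% at the lowest score and 9.32% at 13 or more. Within the members, the share within 200 bp of a start was 37.2% at the lowest score, 39.5% between and 39.7% at 13 or more, and the CpG-rich share was 33.3%, 38.1% and 47.4%.

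**Figure D3:**
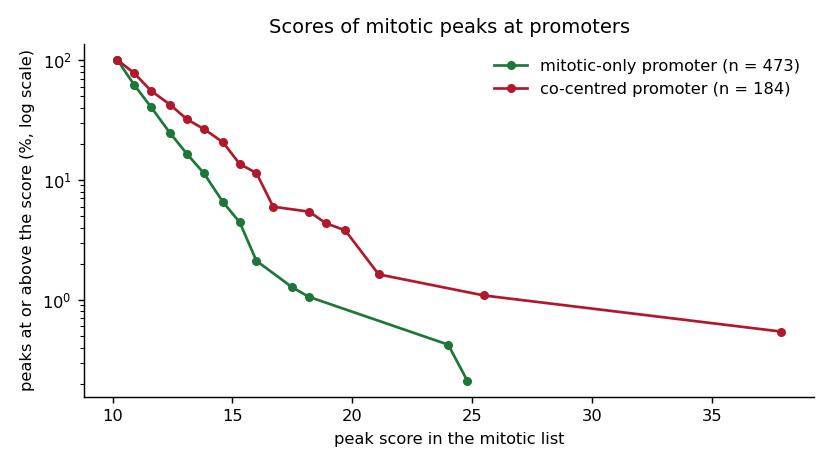
Share of mitotic promoter peaks at or above each score (%, log scale) against the deposited score, for mitotic-only (473) and co-centred (184) peaks. The mitotic-only curve lies below the co-centred one at every score above the lowest, and it ends at 24.8, compared with 37.9.

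The 2 members of highest score were not at protein-coding genes. The highest, at 24.8, lay 813.5 bp upstream of 6820431F20Rik, a processed transcript on chromosome 8, and an asynchronous peak lay 1423 bp away. The next, at 24, lay 19.5 bp upstream of the pseudogene Gm16026 on chromosome 1. The score 18.2 was shared by 3 protein-coding genes: Lmna, Camta1 and Cyp46a1. Lmna encodes lamins A and C of the nuclear lamina, which is taken apart when a cell enters mitosis, and its peak lay 323.5 bp upstream. Camta1, a calmodulin-binding transcription activator, had its peak 146.5 bp upstream, and Cyp46a1, the cholesterol 24-hydroxylase of neurons, 855.5 bp upstream. Ankrd9 followed at 17.5. The other 4 stood at 16: Mcf2l, a guanine nucleotide exchange factor (360.5 bp upstream), Mrps31, a mitochondrial ribosomal protein (44.5 bp downstream), the potassium channel Kcnk13 (43.5 bp upstream) and Bcl11b, a zinc finger factor of T cells and neurons (902.5 bp upstream).

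Of these 10 peaks, 4 were on chromosome 12 and 3 on chromosome 8. Chromosome 8 held 46 members (9.73%) and 4.84% of protein-coding genes, and chromosome 12 held 23 (4.86%) and 3.15%. Members were also frequent on chromosomes 4 (46, 9.73%, beside 6.06% of these genes) and 11 (51, 10.8%, beside 7.39%). They were fewer on others, such as chromosome 2 (23, 4.86%, beside 8.25%). Mitotic-only peaks away from promoters were on chromosomes 8 and 12 more often still, 18.3% and 11.3%. On chromosomes 8 and 12, asynchronous-only promoter peaks stood at 7.75% and 3.94%, and co-centred ones at 10.3% and 4.89%. The part of the chromosomes in the results was not tested beyond leaving out chromosome 8, where the RBPJ, position and CpG differences kept their calls.

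The nearest start belonged to a protein-coding gene for 419 members, 88.6% (85.4 to 91.3), compared with 91.6% (90.1 to 93.0) of asynchronous-only and 96.7% (93.0 to 98.8) of co-centred peaks. The other 54 were 19 lincRNAs, 15 processed transcripts, 6 pseudogenes, 4 miRNAs, 4 snoRNAs, 2 snRNAs, 2 other small RNAs, 1 rRNA and 1 immunoglobulin D segment. Divergent promoters, with starts on both strands within 1 kb, held 100 members (21.1%, 17.5 to 25.1), close to the 22.2% and 23.4% of asynchronous-only and co-centred peaks. Annotated exons were overlapped by 195 members (41.2%), and 278 lay clear of them.

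Several noncoding genes among the members are well known, and those named here were chosen after their values were seen. Meg3, the maternally expressed lincRNA of the imprinted Dlk1 region on chromosome 12, had a peak of score 13.8, 225.5 bp upstream. Mir370, a miRNA of the same imprinted region, had one of score 15.3, 55.5 bp upstream of its hairpin. The closest asynchronous peaks were 105404 and 181809 bp away. Gt(ROSA)26Sor, the lincRNA locus widely used for transgenes, had a peak at the lowest score 772.5 bp upstream, and an asynchronous peak lay 2010 bp from it.

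By genes, 461 of 22367 protein-coding genes, 2.06%, had a mitotic-only peak in a promoter window of any of their transcripts. For asynchronous-only peaks this background was 6.63% (1482 genes), and for co-centred peaks 0.912% (204 genes). Over all 37310 annotated genes, 521 had a mitotic-only promoter peak, 1.4%. These shares follow from how the peaks were chosen, and they serve as the level against which each gene list is read. The 18 gene lists were made by gene name and held 3884 protein-coding genes, of which 78 (2.01%) had a member. The other 383 genes were in no list.

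**Figure D4:**
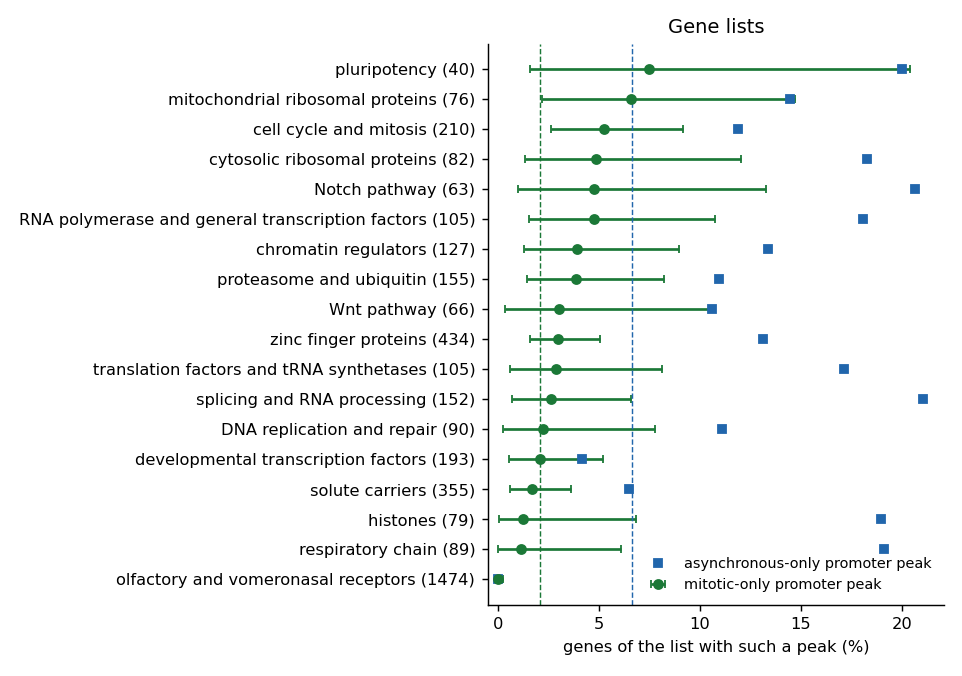
Share of the genes of each list (%, horizontal axis; number of genes in brackets) with a mitotic-only promoter peak (circles, bars are exact 95% intervals) or an asynchronous-only one (squares); dashed lines mark all protein-coding genes, 2.06% and 6.63%. Intervals of all but 3 lists include 2.06%: cell cycle and mitosis and mitochondrial ribosomal proteins lie above it, and olfactory and vomeronasal receptors below.

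Of 63 Notch pathway genes 3 had a mitotic-only promoter peak (4.76%, 0.993 to 13.3), beside 2.06% of all protein-coding genes. They were Hes5, a basic helix-loop-helix repressor and classical Notch target (score 13.1, 779.5 bp upstream), Maml1, the Mastermind-like coactivator that joins RBPJ and Notch on DNA (13.1, 225.5 bp upstream), and the receptor Notch4 (12.4, 114.5 bp upstream). None of these 3 peaks held the RBPJ motif or its 6-letter core. Notch4 also had an asynchronous-only promoter peak, and the asynchronous peak closest to its mitotic one was 22905 bp away. Asynchronous-only promoter peaks were at 13 of the 63 genes (20.6%, beside 6.63%) and co-centred ones at 2 (3.17%, beside 0.912%).

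Of 40 pluripotency genes 3 had a member (7.50%, 1.57 to 20.4), and the interval includes the 2.06% of all protein-coding genes. The 3 were Stat3, the transducer of LIF signalling (11.6, 614.5 bp upstream), Mycn (11.6, 399.5 bp upstream) and Klf4 (the lowest score, 835.5 bp upstream). The peaks of Mycn and Klf4 held the 6-letter core. Asynchronous-only promoter peaks were at 8 of the 40 genes (20%, beside 6.63% of all protein-coding genes), Stat3 among them. Co-centred ones were at 0 of the 40, beside 0.912%.

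The cell cycle and mitosis list had 11 of 210 genes (5.24%, 2.64 to 9.18), beside 2.06% of all protein-coding genes. The interval lies above that level, but it was not adjusted for the 18 lists, which were made by gene name. Co-centred peaks were also more frequent on this list than among all genes, at 2.86% beside 0.912%. So were asynchronous-only peaks on this list, at 11.9% beside 6.63%. Its highest members were Cdk20 (14.6, 91.5 bp upstream), Cdk10 (11.6, 202.5 bp upstream), the condensin II subunit Ncapd3 (11.6, 75.5 bp downstream) and Cdk19, a kinase of the Mediator complex (11.6, 338.5 bp upstream). Incenp, the scaffold of the chromosomal passenger complex (11.6, 201.5 bp upstream), the cohesin subunit Smc1a (10.9, 313.5 bp upstream) and Cdkn1a, which encodes the cell cycle inhibitor p21 (10.9, 442.5 bp upstream), were also in it, and are named after their values were seen. Smc1a had an asynchronous peak 358 bp away. The other members, 2 of them on chromosome 18, are not named.

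Ribosomal protein genes had members in both compartments, beside 2.06% of all protein-coding genes. The interval of the cytosolic list includes that level, and that of the mitochondrial list lies just above it, without adjustment for the 18 lists. For the mitochondrial ribosome these were 5 of 76 (6.58%, 2.17 to 14.7): Mrps31 (16), and Mrpl50, Mrpl1, Mrps6 and Mrpl43 at the lowest score. For the cytosolic ribosome they were 4 of 82 (4.88%, 1.34 to 12.0): Rps7 (12.4, 76.5 bp upstream), Rpl14 (10.9, 253.5 bp upstream), and at the lowest score Rpl6 (12.5 bp downstream) and Rps18 (368.5 bp upstream). Asynchronous-only peaks were at 14.5% and 18.3% of these genes, beside 6.63% of all protein-coding genes. Co-centred peaks were at 1.32% of the mitochondrial and 8.54% of the cytosolic genes, beside 0.912%. The respiratory chain had 1 of 89 genes (1.12%), Ndufa9, compared with 17 (19.1%) with an asynchronous-only peak.

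Genes of transcription and chromatin came next, in lists whose intervals all include the 2.06% of all protein-coding genes. Subunits of RNA polymerase and general factors had 5 of 105 genes (4.76%, 1.56 to 10.8), with Polr2i (10.9, 39.5 bp downstream), Med25, Gtf2a1 and Polr2h all at 10.9. Chromatin regulators had 5 of 127 (3.94%, 1.29 to 8.95): Ino80e, a subunit of the INO80 remodeller (13.8, 58.5 bp upstream), the remodeller Chd1 (13.8, 444.5 bp upstream), Mbd6 (10.9) and Ezh1, a methyltransferase of Polycomb complex PRC2 (10.9, 77.5 bp upstream) were the highest. Of 79 histone genes only H3f3b, which encodes the replication-independent histone H3.3, had a member (14.6, 109.5 bp upstream). An asynchronous-only promoter peak was at 15 of them (19.0%, beside 6.63% of all protein-coding genes). Zinc finger genes had 13 of 434 (3.00%, 1.60 to 5.07), with Zfp473 and Zfp563 at 11.6 and Zfp341 and Zkscan5 at 10.9.

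The other lists had few members, beside 2.06% of all protein-coding genes. Proteasome and ubiquitin genes had 6 of 155 (3.87%), led by Usp5 (15.3, 572.5 bp upstream), Ube2m and Usp31 (both 11.6) and Usp47 (10.9). The peak of Usp5 is shared with Cdca3, whose start is closer. Splicing had 4 of 152 (2.63%), with Srsf4 (14.6, 443.5 bp upstream), Sfrs18, Dhx32 and Lsm4 (each 11.6), and translation factors 3 of 105 (2.86%), Eif2b3 (12.4), Eif3k (11.6) and Eif2ak1 (10.9). Replication and repair had 2 of 90, Mcm10 (11.6, 57.5 bp upstream) and Msh5 (10.9), and the Wnt pathway 2 of 66, Wnt5b and Csnk1d at the lowest score. Developmental transcription factors had 4 of 193 (2.07%), Hoxa5 (11.6, 822.5 bp upstream), Tbx1 (10.9), and Lhx6 and Nkx6-2 (both at the lowest score). Solute carriers had 6 of 355 (1.69%), with Slc25a44 (13.1), Slc25a42 and Slc18a2 (both 12.4) and Slc15a5 at the lowest score. Olfactory and vomeronasal receptors had 0 of 1474 (upper limit 0.250%), and 0 with an asynchronous-only peak.

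A few genes outside the lists are named here after their values were seen. Asf1a, a histone chaperone, had a peak of score 13.1, 457.5 bp upstream of its start, and the closest asynchronous peak was over 4 Mb away (4370460 bp). Trip13, an ATPase of the spindle checkpoint, had one of 13.8, 290.5 bp upstream. The tumour suppressor Rb1 had a peak of 11.6, 656.5 bp upstream, and Gadd45b, a stress-induced gene, one of 11.6, 56.5 bp downstream.

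Most members lay over 10 kb from the closest asynchronous peak, but this distance was not measured for other sets of peaks or promoters. The distance to the closest one had a median of 40746 bp (quartiles 11949 and 178481), it exceeded 10 kb for 367 members (77.6%), and it was at most 1000 bp for 42 (8.88%). The rule required over 250 bp, and the members nearest to that limit were Ndufa9 (253 bp) and Eif3k (256 bp), while the promoter peaks of Mxd3 (222 bp) and Zfp790 (228 bp) fell just inside it and counted as co-centred. At the upstream limit Sbno1 (-999.5 bp) and Wdr20a (-983.5 bp) were members and Fam109b and Tlx1 (both -1002.5 bp) were not. At the downstream limit Mrpl1 (95.5 bp) and Slc15a5 (97.5 bp) were members and Klk1 (100.5 bp) and Cxcr7 (102.5 bp) were not. The highest score of these 12 peaks was 14.6, that of Mxd3.

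**Figure D5:**
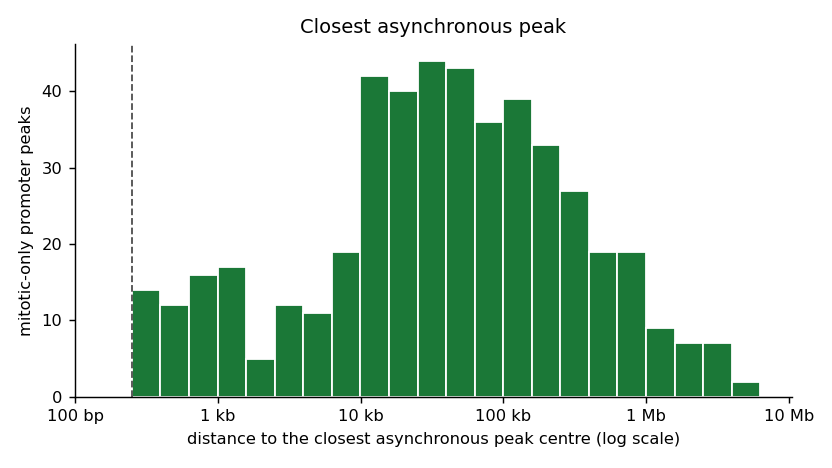
Number of mitotic-only promoter peaks (vertical axis) by distance to the closest asynchronous peak centre (log scale, from 250 bp, dashed line). Most members stand at over 10 kb (367 of 473), and no other set was measured for comparison.

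For 60 members (12.7%), an asynchronous peak lay in a promoter window of a gene whose window also held the member. Where several genes shared a member, that gene need not be the nearest one. Counted by genes, 52 protein-coding genes had both a mitotic-only and an asynchronous-only promoter peak, 11.3% of the 461 and 3.51% of the 1482. Over all protein-coding genes the levels were lower, 6.63% with an asynchronous-only peak and 2.06% with a mitotic-only one. The difference was not tested. For Lmna the 2 peaks were 26502 bp apart and at starts of different transcripts. At Pde6d, a prenyl-binding protein (15.3), the asynchronous peak was 4350 bp away, and the member also lay in a window of Cops7b. The distance was 1778 bp at Wrap53, which is needed for telomerase trafficking (15.3), 411 bp at Cecr6 (13.8) and 865 bp at 1700122E12Rik (13.8). In the last case the mitotic peak lay 758.5 bp upstream and the asynchronous one 106.5 bp downstream of the same start. That is past the 100 bp limit, so the asynchronous peak counted through another start of the gene. The same held for the asynchronous peak of Wrap53, 844.5 bp downstream.

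At 10 genes, 2 members lay in promoter windows of the gene. The pairs at Aim1l, Arl2, Gm10433, Pomgnt1, Rap2b, SNORA14 and Wrap53 were 432 to 890 bp apart. Those at Tpi1, a glycolytic enzyme (both 13.8), Lmna and Dhcr7 were 2310, 6745 and 7207 bp apart, at starts of different transcripts. The pair at Lmna had scores of 18.2 and the lowest of the list.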

How the data were processed

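RBPJ peaks of F9 cells were read from 2 lists, 1 of asynchronous and 1 of mitotic cells, each called on 1 of the 2 immunoprecipitations made. The authors aligned reads to mm9 with Bowtie 0.12.7, keeping unique matches, and called peaks with HOMER over the matching input (false discovery rate 0.001, Poisson p 0.0001, at least 1 RPM). The deposited score of each peak is in a unit not given in the sources used here, and it served only to rank peaks within a list. Neither list holds read counts, so the depth behind each peak cannot be read from them. Intervals therefore cover the counting of peaks only.

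Centres were the middle of each interval. Starts came from the 95495 transcripts of GENCODE vM1 and sequence from NCBIM37, whose chromosome lengths match mm9. Motifs were searched on both strands in 203 bp around each centre, and CpG content was computed in 501 bp. Shares carry exact (Clopper-Pearson) 95% intervals. Shares of peaks were compared by two-sided Fisher's exact tests, with Benjamini-Hochberg adjustment over 24 tests at a threshold of 0.05. There is 1 list per population, so these tests compare sets of listed peaks and not the conditions, and no replicate spread can be given.

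The genes named were the 10 members of highest score, members with the RBPJ motif, up to 4 members of each of 18 gene lists (all for Notch, pluripotency and histone genes), the 2 peaks on either side of each limit, and genes with several members. Also named were the 5 best members with an asynchronous peak in a promoter window of a gene whose window held them. Other genes named, such as Mrpl43, Incenp, Smc1a, Cdkn1a, Meg3 and Asf1a, were chosen after their values were seen. No gene of chromosome 18 is named. The members, gene lists and tests were chosen with earlier results of these data known. The code was checked on simulated data, where all 200 planted peaks of each kind and all 200 planted motifs were recovered. This check does not bear on the results themselves. Alternatives changed the distance limit, promoter window, scores, starts, motif window, CpG limits and chromosomes. Python 3.11.15, numpy 2.4.6, pandas 2.3.3, scipy 1.17.1, pysam 0.24.0 and matplotlib 3.10.9 were used.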

Additional observations from a re-analysis of the deposited data

How the results depend on the processing

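The 12 results were recomputed under 14 settings, 113 alternatives in all, of which 93 kept direction, call or value. The alternatives without chromosome 8, without the lowest score and within 200 bp of a start were chosen after seeing the data. The RBPJ odds ratio against asynchronous-only peaks was 0.621 in a wider motif window (adjusted p = 0.0603 by two-sided Fisher's exact test). With peaks at or above the median score, each list being cut before the classes were formed, the odds ratios against co-centred peaks were 0.683 for CpG-rich sequence and 0.782 for position. Neither passed. Without peaks at the lowest score these odds ratios were 0.539 and 0.546, and both passed. CTCF against asynchronous-only peaks, which did not pass at 0.922, turned to 1.12 at the median score, 1.17 in the wider motif window, 1.84 with up to 1 mismatch, 1.04 without chromosome 8 and 1.80 within 200 bp of a start, and passed at 0.549 with a promoter from 2 kb upstream to 500 bp downstream. CTCF against co-centred peaks no longer passed at a limit of 100 bp (0.460), at the median score (0.410), with protein-coding starts (0.451), with up to 1 mismatch (0.775), without chromosome 8 (0.458) and without the lowest score (0.396), and turned to 1.10 within 200 bp of a start. Without peaks at the lowest score there were 293 members and 293 protein-coding genes. Divergent promoters were 15.9% with protein-coding starts and 15.1% with the wider promoter. The cause of these changes was not tested. No paired analysis was possible because each population has a single peak list, although the labels number 2 immunoprecipitations in each. Without read counts, a peak missing from a list cannot be told apart from one under the authors' threshold.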
